A study of Mus musculus with 6 samples.

Results

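The genes described here are 39 axon guidance cues and receptors of the mouse retina, chosen as a list of named genes. They comprise 6 genes of the Slit and Robo families, 6 of the netrin pathway, 17 semaphorins, plexins and neuropilins, and 10 ephrins and Eph receptors, or 16 ligands and 23 receptors. They are 39 of the 39179 gene rows in every deposited table, and all 39 were among the 16691 genes abundant enough to be tested. Bulk RNA-seq was made from retinas of 6 newborn mice at postnatal day 0.5, of mixed and mainly CD-1 strain. All 6 animals carried floxed alleles of Lhx2 (Lhx2 lox/lox). The 3 conditional knockouts (cKO) also carried Pdgfrα-Cre, a recombinase under control of the platelet-derived growth factor receptor alpha promoter, and the 3 controls carried no Cre, although the series text calls them wild type. Lhx2 encodes a transcription factor of the LIM homeodomain class that progenitors of the eye need. The sources used here do not give which retinal cells had lost the gene, and a bulk library mixes them with cells that had not.

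Libraries held 31483170 to 66947478 reads on genes. They fell into sets that no label explains, told apart by the share of reads ambiguous between genes: set A at 3.13 to 3.20% (control 2, cKO 1 and cKO 2) and set B at 2.63 to 2.69% (control 3, control 4 and cKO 3). Set B also had more mitochondrial reads (7.14 to 9.55% against 1.15 to 1.79%). Library set was therefore a term in every main comparison. By reads from Y-linked genes, controls 2 and 4 were male and the other 4 libraries female, so all cKO libraries were female. Lhx2 itself was at 398, 266 and 258 CPM (gene counts scaled to a common library total) in controls 2, 3 and 4 against 252, 287 and 224 CPM in cKO 1, 2 and 3. The groups overlapped, and the log2 fold change was -0.40 ± 0.099 (standard error, SE; adjusted p = 0.0338) with library set and -0.27 (adjusted p = 0.817) without it. Without control 2 it was -0.22 (adjusted p = 0.414), and it also failed to pass without control 3 (adjusted p = 0.0794), cKO 2 (0.0602) or cKO 3 (0.0727). Reads from exons outside the deleted part count towards Lhx2, so gene counts are a weak check of the deletion.

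Growing axons are steered by secreted and membrane-bound cues that attract or repel a growth cone according to the receptors it carries. Slits are secreted repellents read by Robo receptors, and netrin-1 attracts through Dcc and repels through Unc5 receptors. Class 3 semaphorins are secreted and act through neuropilins paired with plexins, whereas class 5 and class 6 semaphorins span the membrane and bind plexins directly. Ephrin-A proteins, anchored to the membrane, bind EphA receptors. In the visual system these cues lead ganglion cell axons out of the eye through the optic disc, sort them at the optic chiasm and map them onto their targets, and several of them also shape the layers of the retina.

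Promoter sequences of RefSeq (build GRCm38.p6) were available for 31 of the 39 genes, as 37 promoters. For 3 of the genes that differed between genotypes, the 100 bases just before the RefSeq start site are shown, 5′ to 3′ on the gene's strand, because they differ in their content of CG dinucleotides (capitals).

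Unc5b, chr10:60831582-60831681, minus strand, 15 CG: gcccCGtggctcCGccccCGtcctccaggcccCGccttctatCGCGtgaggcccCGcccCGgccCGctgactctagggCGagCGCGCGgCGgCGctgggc

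Sema6d, chr2:124089869-124089968, plus strand, 6 CG: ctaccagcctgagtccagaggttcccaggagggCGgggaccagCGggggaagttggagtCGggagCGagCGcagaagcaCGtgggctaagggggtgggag

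Epha4, chr1:77515089-77515188, minus strand, 5 CG: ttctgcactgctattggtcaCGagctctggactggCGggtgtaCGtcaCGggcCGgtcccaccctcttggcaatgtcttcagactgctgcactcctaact

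Over the 250 bases before the start, guidance gene promoters held a median of 18.0 CG (2 to 46), against 6.0 (0 to 56) over all 32851 promoters of the RefSeq table. That table includes genes too scarce to be tested here, whereas every guidance gene was tested, so the 2 groups are not matched for abundance. The 9 promoters of 8 genes past the threshold had a median of 14.0 and the 28 others 18.5. No promoter was available for Slit1, Ntn1 and Sema3f, which also passed. The sequence TAATTA, a core motif bound by many homeodomain proteins and the same on both strands, lay in this window in 2 of the 37 guidance promoters (5.41%) and in 4.84% of all promoters. Neither belonged to a gene that passed the test, among those with a promoter available. Both sites are shown with their flanks, in GRCm38.p6, with the motif in capitals.

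Epha5, chr5:84417595-84417624, minus strand, motif starting 230 bases before the start site: gattctttacccTAATTAtcccgggaggaa

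Robo3, chr9:37433259-37433288, minus strand, motif starting 101 bases before the start site: ggattaagccctTAATTAcggcgtgatccg

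A match is a description of these letters and not of a bound site.

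Levels between genes were compared as CPM per kb of exon, since long transcripts collect more reads. In controls they spanned from 29.2 ± 9.29 CPM per kb (SD, n = 3) for Plxnb2, a plexin that binds class 4 semaphorins, to 0.0819 ± 0.0373 for Slit3. Robo2 (22.45 ± 8.81), Epha8 (22.38 ± 0.524), Plxnb1 (20.0 ± 5.41) and Sema6a (20.0 ± 8.30) followed Plxnb2, and none of these neighbours differed by more than their spread. Among ligands, Sema6a, the ephrin Efna2 (19.0 ± 1.19) and Sema3f (13.5 ± 3.78) stood highest. Netrin-1 itself, encoded by Ntn1, was among the 3 lowest at 0.147 ± 0.0606 CPM per kb, with Sema3c (0.110 ± 0.0236) and Slit3. Spread over controls differed widely: Ephb1 (8.82 ± 0.160) and Efna5 (3.10 ± 0.0259) hardly varied, whereas Robo3 (7.16 ± 5.76) ranged from 17.3 to 93.2 CPM.

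**Figure D1:**
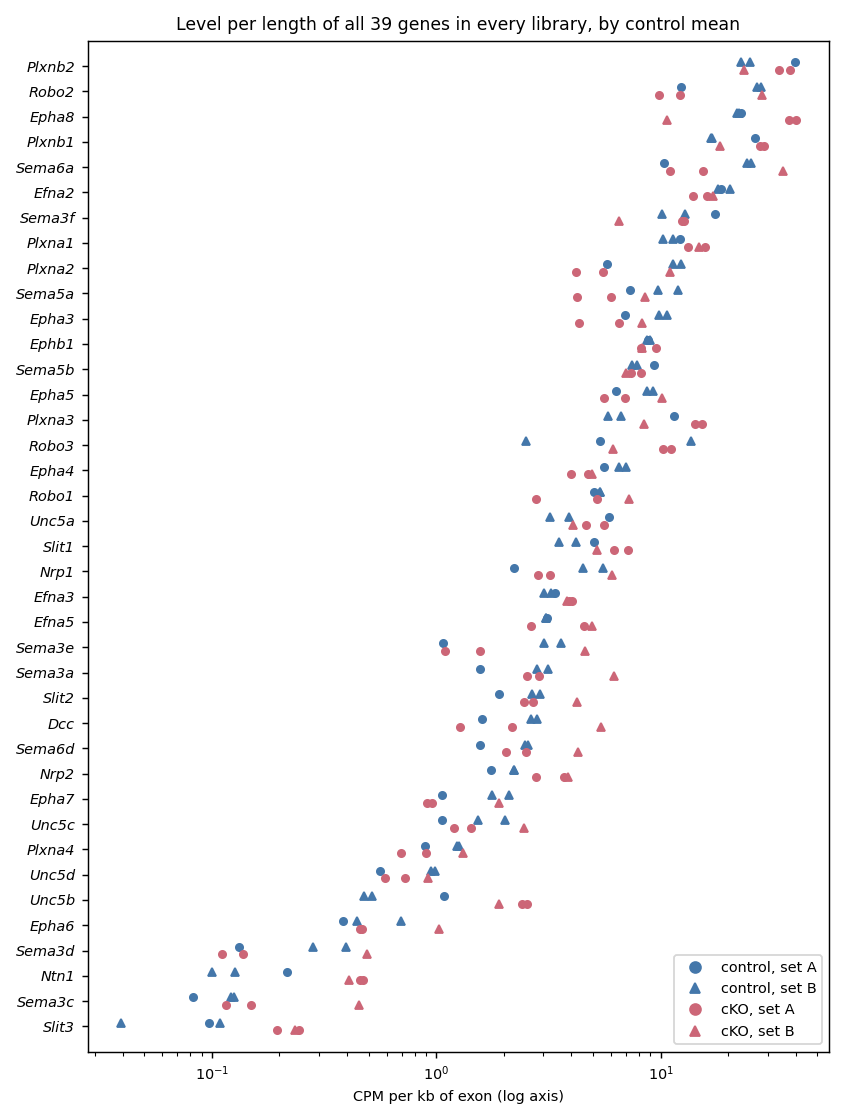
CPM per kb of exon (log axis) of the 39 guidance genes in each of the 6 libraries, ordered by control mean; blue marks controls and red cKO, circles library set A and triangles set B. Plxnb2 is at the top at 29.2 CPM per kb in controls and Slit3 at the bottom at 0.0819, and for Unc5b, Ntn1 and Slit3 every red point lies to the right of every blue one.

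In cKO retinas, 9 of the 39 guidance genes were higher (Slit1, Slit2, Ntn1, Unc5b, Sema3a, Sema3c, Sema6d, Plxna3 and Nrp2) and 2 were lower (Sema3f and Epha4), at an adjusted p under 0.05 with library set in the model. The other 28 did not pass. Over all genes tested, 6.36% passed as higher and 5.63% as lower, against 23.08% and 5.13% of the guidance genes. The median log2 fold change of the 39 genes was 0.26, with 25 positive, and that of all genes was -0.001, with 49.9% positive. Ligands had 6 higher and 1 lower of 16 (median 0.42), and receptors 3 higher and 1 lower of 23 (median 0.08). The 9 higher genes numbered 16 without cKO 1 and 3 without cKO 3, the only cKO library of set B. The 2 lower genes numbered 4 without cKO 2, 1 without control 3 or control 4, and 0 without cKO 3. Counts over all genes moved too, from 1062 higher and 939 lower with every library. They were 1371 and 1336 without cKO 1, 734 and 756 without cKO 2, and 176 and 134 without cKO 3. Without controls 2, 3 and 4 they were 552 and 168, 545 and 452, and 637 and 631. Each fit without a library tested 16819 to 17214 genes, and these counts stand beside the families and lists below.

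These calls rested on the library set term. Fitted by genotype alone with edgeR, 0 guidance genes passed in either direction, against 0.216% higher and 0% lower over all genes. At an unadjusted p under 0.05 this fit gave 5 higher and 1 lower guidance genes, and 1292 of all 16691 genes. For the other fits no all-gene count at an unadjusted p is given, so their unadjusted counts have no share beside them. With sex as a further term, edgeR gave 10 higher and 3 lower at an unadjusted p under 0.05. After adjustment it called 0 higher and 1 lower, against 1.04% and 0.377% of all genes. The remaining call was Sema3f, at -0.93 (adjusted p = 0.0288). Without regard to any model, 7 guidance genes had every cKO library above every control (17.95%, against 8.38% of all genes) and 2 had every cKO library below (5.13%, against 5.54%). Those above were Slit1, Slit3, Ntn1, Unc5b, Plxna1, Nrp2 and Efna3, and those below were Epha4 and Efna2.

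**Figure D2:**
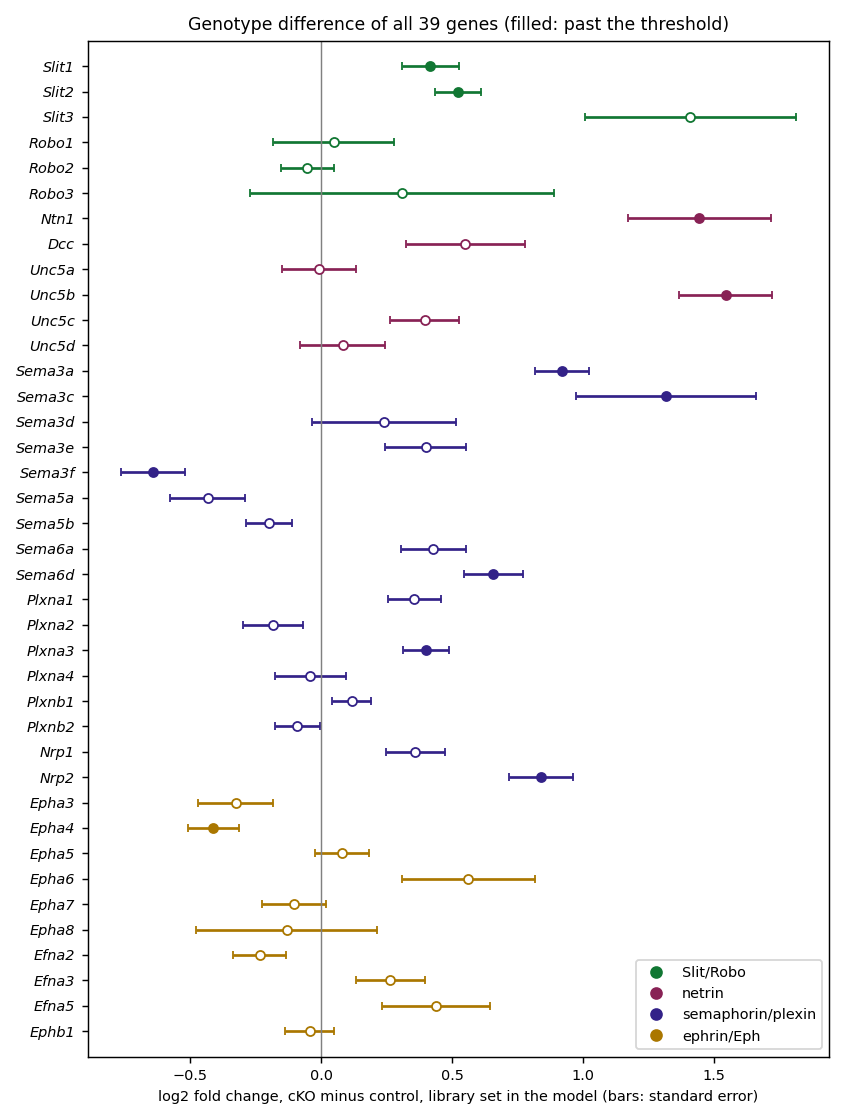
Log2 fold change (cKO minus control, library set in the model) of the 39 guidance genes, with bars of 1 SE, coloured by family; filled points passed an adjusted p of 0.05. The netrin genes Ntn1 (1.44) and Unc5b (1.55) lie farthest right among filled points, Sema3f (-0.64) and Epha4 (-0.41) are the filled points left of 0, and the ephrins and Eph receptors lie on both sides of it.

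Among Slit and Robo genes, Slit1 and Slit2, which encode repellents of ganglion cell axons, were higher in cKO retinas and their Robo receptors did not pass. The 6 listed Slit and Robo genes counted 2 higher and 0 lower (33.33% and 0%, against 6.36% and 5.63% of all genes), with a median of 0.36. At an unadjusted p under 0.05 edgeR gave 3 and 0, and DESeq2 and limma-voom also called 0 lower. Slit1 (ENSMUSG00000025020, chr19:41600257-41743665, GRCm38) was at 29.9, 24.8 and 20.8 CPM in controls 2, 3 and 4 against 36.6, 42.4 and 30.8 CPM in cKO 1, 2 and 3. All cKO libraries lay above all controls, with the lowest cKO library just above the highest control. Its log2 fold change was 0.42 ± 0.11 (SE; adjusted p = 0.0408). That call was lost on leaving out any library but cKO 1, at 0.35 to 0.46 (adjusted p 0.0661 to 0.262), and under another scaling of library sizes, RLE (0.38, adjusted p = 0.0564). Slit2 (ENSMUSG00000031558, chr5:47983138-48307733) was at 48.4, 73.5 and 68.1 CPM in controls against 62.6, 68.3 and 108 CPM in cKO. The groups overlapped, since set A libraries were low and set B libraries high in both genotypes, but within each set every cKO library exceeded every control. The log2 fold change was 0.52 ± 0.088 (adjusted p = 0.00774), and 0.46 (adjusted p = 0.137) without cKO 3.

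Slit3, the least abundant of the family, was at 0.590, 0.239 and 0.662 CPM (27, 8 and 20 reads) in controls against 1.18, 1.48 and 1.43 CPM (66, 107 and 42 reads) in cKO. The groups did not overlap, yet the log2 value of 1.41 ± 0.40 fell just outside the threshold (adjusted p = 0.0545). Slit3 passed with DESeq2 (1.38, adjusted p = 0.0395), without a filter on low counts (1.39, 0.00354) and without scaling (1.45, 0.0486), and DESeq2 thus called 3 genes of the family higher. Robo2, the most abundant Robo, was at 209, 476 and 459 CPM in controls against 168, 207 and 483 CPM in cKO, so its levels separated by library set and not by genotype (log2 -0.05 ± 0.10, adjusted p = 0.792). Robo1 (0.05 ± 0.23) and Robo3 (0.31 ± 0.58), a divergent family member known from commissural axons, varied widely between libraries and did not pass. Robo3 was at 17.3 CPM in control 3 and 93.2 in control 4, of the same set.

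In the netrin pathway, Ntn1 and its receptor Unc5b had the largest log2 fold changes among guidance genes that passed. The pathway counted 2 of 6 higher and 0 lower (33.33% and 0%, against 6.36% and 5.63% of all genes), with a median of 0.47. At an unadjusted p under 0.05 edgeR gave 4 and 0, and DESeq2 and limma-voom also called 0 lower. Unc5b (ENSMUSG00000020099, chr10:60762593-60831581), a receptor for netrin also known from blood vessels, was at 6.75, 3.23 and 2.98 CPM in controls against 15.8, 15.1 and 11.9 CPM in cKO. Every cKO library was well above every control, and the log2 fold change was 1.55 ± 0.18 (adjusted p = 0.00163). It passed without each library in turn, at 1.22 to 1.94. With sex as a further term it was 1.68 (adjusted p = 0.0534). Ntn1 (ENSMUSG00000020902, chr11:68209364-68400823) was at 1.35, 0.628 and 0.794 CPM in controls (62, 21 and 24 reads) against 2.94, 2.87 and 2.55 CPM in cKO (165, 208 and 75 reads). The groups did not overlap, but the gene remained among the least abundant. Its log2 fold change was 1.44 ± 0.27 (adjusted p = 0.0116), and 1.13 (adjusted p = 0.172) without cKO 3.

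The other netrin receptors did not pass. Dcc, which mediates attraction to netrin-1, was at 21.1, 35.0 and 37.1 CPM in controls against 16.7, 28.8 and 71.2 CPM in cKO. Its cKO libraries held both the lowest and the highest value (log2 0.55 ± 0.23, adjusted p = 0.162). Unc5a, the most abundant of the receptors per kb, was at 24.5, 16.3 and 13.4 CPM in controls against 19.4, 23.4 and 17.0 CPM in cKO (-0.01 ± 0.14, adjusted p = 0.979). Unc5c (0.39 ± 0.13, adjusted p = 0.0882) and Unc5d (0.08 ± 0.16, adjusted p = 0.808) also overlapped between groups.

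**Figure D3:**
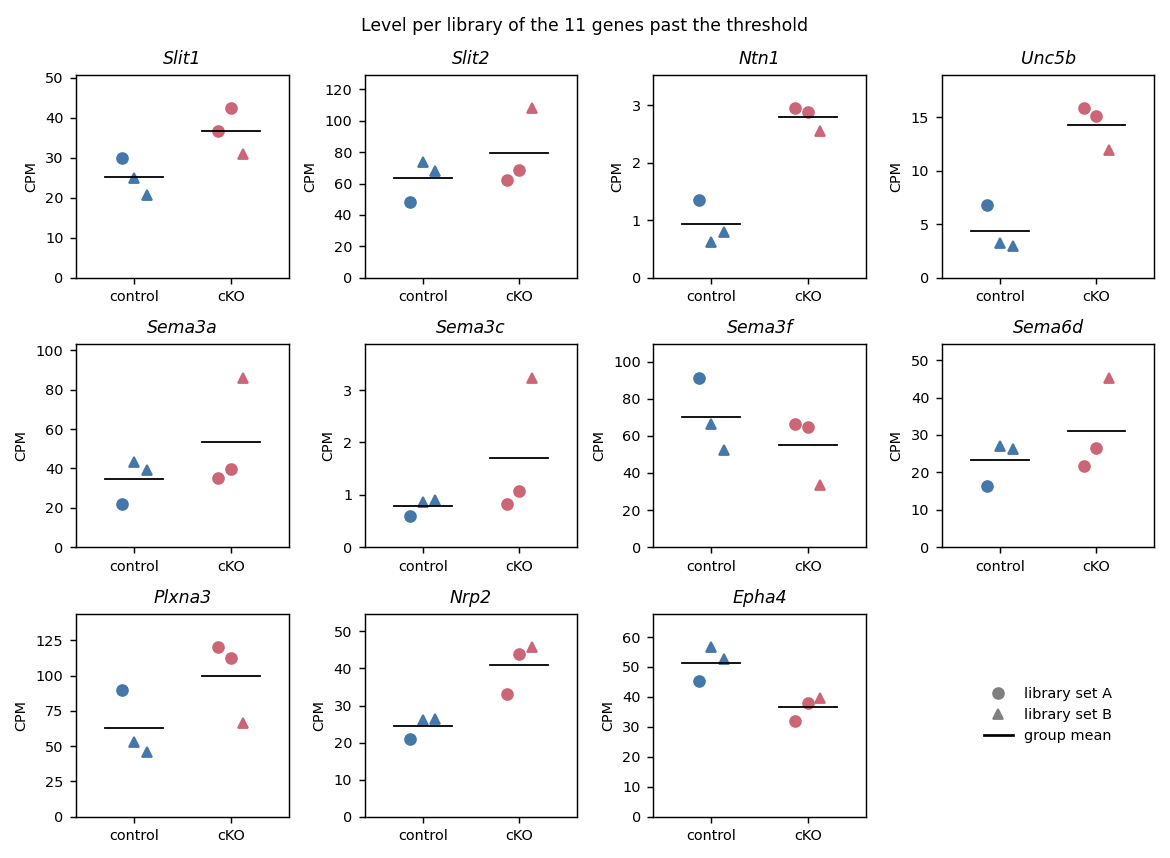
CPM of the 11 guidance genes past the threshold in each library, with circles for library set A, triangles for set B and a line at the group mean; every vertical axis starts at 0. Slit1, Ntn1, Unc5b and Nrp2 have all cKO points above all controls and Epha4 has all below, whereas for Slit2, Sema3a, Sema3c, Sema3f, Sema6d and Plxna3 the groups overlap and separate only within a shape.

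Secreted class 3 semaphorins moved in opposite directions. Sema3a and Sema3c were higher in cKO retinas and Sema3f was lower, while Sema3d (0.24 ± 0.27) and Sema3e (0.40 ± 0.15) did not pass. Sema3a (ENSMUSG00000028883, chr5:13125414-13602565), the classical collapsing factor of growth cones that acts through neuropilin-1, was at 21.8, 43.5 and 39.1 CPM in controls against 35.1, 39.6 and 85.9 CPM in cKO. Control 2 was the lowest library and cKO 3 the highest. Within set A the log2 difference was 0.78 and within set B 1.06. The fitted log2 change was 0.92 ± 0.10 (adjusted p = 0.00129), the smallest adjusted p among the 39 genes. It passed without each library in turn, at 0.81 to 1.06, and was 0.89 (adjusted p = 0.0633) with sex as a further term.

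Sema3f, whose product acts through neuropilin-2, fell as its receptor gene Nrp2 rose. Sema3f (ENSMUSG00000034684, chr9:107681500-107710475) was at 91.2, 66.6 and 52.5 CPM in controls against 66.3, 64.9 and 33.8 CPM in cKO. The highest library was control 2 and the lowest cKO 3, and the groups overlapped except within a set. With library set in the model the log2 fold change was -0.64 ± 0.12 (adjusted p = 0.0117), and -0.45 (adjusted p = 0.201) without cKO 3. Sema3c (ENSMUSG00000028780, chr5:17574281-17730268) was scarce, at 0.590, 0.867 and 0.894 CPM in controls (27, 29 and 27 reads) against 0.821, 1.06 and 3.23 CPM in cKO (46, 77 and 95 reads). Only cKO 3 was far above the controls. Its log2 fold change of 1.32 ± 0.34 (adjusted p = 0.0395) was 0.71 (adjusted p = 0.515) without cKO 3, and it no longer passed without control 3 (adjusted p = 0.109), control 4 (0.098) or cKO 2 (0.0905).

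Of the membrane-bound semaphorins, Sema6d was higher. Sema6d (ENSMUSG00000027200, chr2:124089969-124667770), known from the optic chiasm where it acts on crossing ganglion cell axons, was at 16.5, 27.1 and 26.2 CPM in controls against 21.7, 26.4 and 45.2 CPM in cKO. The groups overlapped between sets but not within one. The fitted log2 change was 0.66 ± 0.11 (adjusted p = 0.00818), and 0.57 (adjusted p = 0.144) without cKO 3. Sema6a, which with plexin-A4 sorts inner retinal sublayers, was at 91.2, 213 and 221 CPM in controls against 97.0, 135 and 308 CPM in cKO. Library set separated its values far more than genotype did (0.43 ± 0.12, adjusted p = 0.0580). Sema6a passed without cKO 1 (0.53, adjusted p = 0.000879) and with DESeq2 (0.39, adjusted p = 0.0306). With sex as a further term in edgeR it did not (0.50, adjusted p = 0.304). Sema5a (-0.43 ± 0.14, adjusted p = 0.0883) and Sema5b (-0.20 ± 0.087, adjusted p = 0.187), which keep inner retinal neurites out of the outer retina, both had negative values that did not pass.

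Among semaphorin receptors, Nrp2 and Plxna3 were higher. The 17 semaphorins, plexins and neuropilins together counted 5 higher and 1 lower (29.41% and 5.88%, against 6.36% and 5.63% of all genes). Their median was 0.36, and 0.04 without library set in the model. The higher count was 1 without cKO 3, 3 without control 4 and 9 without cKO 1. Nrp2 (ENSMUSG00000025969, chr1:62703285-62818695) was at 20.9, 26.2 and 26.3 CPM in controls against 33.0, 43.8 and 45.7 CPM in cKO. All cKO libraries were above all controls, by similar amounts in set A (log2 0.87) and set B (0.80). Its fitted log2 change was 0.84 ± 0.12 (adjusted p = 0.00427), and 0.91 (adjusted p = 0.0540) without cKO 3. Plxna3 (ENSMUSG00000031398, chrX:74329066-74344689), a plexin that pairs with neuropilins and lies on the X chromosome, was at 90.0, 52.7 and 46.0 CPM in controls against 120, 112 and 66.6 CPM in cKO. Set A libraries were higher than set B libraries in each genotype, and cKO exceeded control within both sets. The log2 fold change was 0.40 ± 0.088 (adjusted p = 0.0211), and 0.29 (adjusted p = 0.347) with sex as a further term. The call was lost on leaving out control 2 (0.43, adjusted p = 0.115), control 4 (0.34, 0.0757) or cKO 3 (0.40, 0.192).

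Plxna1 was at 110, 92.5 and 103 CPM in controls against 119, 144 and 134 CPM in cKO. Its groups did not overlap, and the log2 value of 0.36 ± 0.10 fell outside the threshold (adjusted p = 0.0548) but passed without cKO 1 (0.42, adjusted p = 0.00554). Plxna1 also passed with DESeq2 (0.32, adjusted p = 0.0362) but not with sex as a further term in edgeR (0.50, adjusted p = 0.181). Nrp1 was at 21.7, 54.2 and 44.3 CPM in controls against 27.9, 31.5 and 59.5 CPM in cKO (0.36 ± 0.11, adjusted p = 0.0705; 0.38, adjusted p = 0.0457, without cKO 1). Plxnb2, the most abundant guidance gene, was at 307, 192 and 176 CPM in controls against 259, 292 and 181 CPM in cKO (-0.09 ± 0.087, adjusted p = 0.566). Plxnb1 (0.12 ± 0.073), Plxna2 (-0.18 ± 0.11) and Plxna4 (-0.04 ± 0.14) did not pass either.

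Ephrins and Eph receptors counted 0 higher and 1 lower of 10 (0% and 10%, against 6.36% and 5.63% of all genes), with a median of -0.07. For 10 genes, these counts lie near the shares of all genes. At an unadjusted p under 0.05 edgeR gave 0 higher and 3 lower, DESeq2 0 and 3, and limma-voom 1 and 3; after adjustment DESeq2 and limma-voom called 0 higher. The count of higher genes was 1 without cKO 1 and 1 without cKO 3. Epha4 (ENSMUSG00000026235, chr1:77367185-77515088), a receptor that binds both ephrin-A and ephrin-B ligands, was at 45.2, 56.5 and 52.6 CPM in controls against 32.1, 38.1 and 39.7 CPM in cKO. Every cKO library was below every control. The estimated log2 fold change was -0.41 ± 0.097 (adjusted p = 0.0275), and the call was lost on leaving out control 2 (-0.46, adjusted p = 0.136), control 3 (-0.39, 0.0962), control 4 (-0.44, 0.0696) or cKO 3 (-0.34, 0.318). The ligand Efna2 was also lower in every cKO library, at 39.7, 38.3 and 43.2 CPM in controls against 34.4, 29.8 and 36.5 CPM in cKO, but did not pass (-0.24 ± 0.10, adjusted p = 0.178). Its relative Efna3 was above in every cKO library by a small margin (7.35 to 8.19 against 9.32 to 9.78 CPM; 0.26 ± 0.13, adjusted p = 0.244). Ephb1, the receptor that turns ipsilateral axons away from the midline, was at 61.0 to 63.1 CPM in controls against 57.4 to 67.0 CPM in cKO (-0.04 ± 0.094, adjusted p = 0.819). Epha3, Epha5, Epha6, Epha7 and Efna5 overlapped between groups, with log2 values from -0.33 ± 0.14 (Epha3) to 0.56 ± 0.25 (Epha6).

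Epha8 moved in opposite directions within the library sets. It was at 108, 103 and 105 CPM in controls, and at 188, 176 and 50.3 CPM in cKO 1, 2 and 3. Controls of both sets were nearly equal, the set A cKO libraries lay far above them and the set B cKO library lay far below. The log2 difference was 0.76 within set A and -1.05 within set B. Tested as an interaction of set and genotype, this gap was 1.81 ± 0.18 (adjusted p = 0.0173), and Epha8 was the only guidance gene among the 4 genes (0.0240% of those tested) that passed that test. The log2 fold change over both sets, -0.13 ± 0.35 (adjusted p = 0.853), describes neither: it was 0.78 (adjusted p = 0.0158) without cKO 3 and -1.05 (adjusted p = 0.00286) without control 2.

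**Figure D4:**
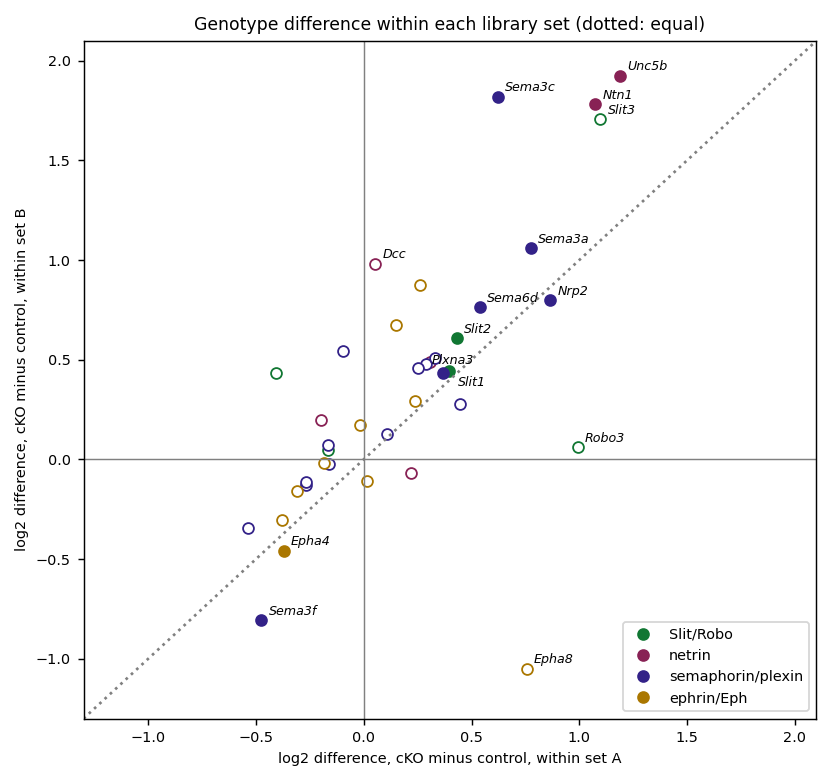
Log2 difference (cKO minus control) within library set A against that within set B for the 39 guidance genes, coloured by family and filled where the gene passed with library set in the model; the dotted line marks equal differences. The 11 filled points lie in the upper right or lower left, from Unc5b (1.19 and 1.92) to Sema3f (-0.48 and -0.81), and Epha8 lies farthest to the lower right (0.76 and -1.05).

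Within sets, 18 of the 39 genes had every cKO library above every control in both set A and set B (46.15%, against 22.9% of all genes tested), and 7 had every cKO library below (17.95%, against 23.8%). Set A has 1 control and 2 cKO libraries and set B the reverse, so each within-set difference rests on 3 libraries. All 11 genes past the threshold were among these 25. Unc5b, Ntn1 and Sema3c had larger differences in set B (1.92, 1.78 and 1.82) than in set A (1.19, 1.08 and 0.62), but none of these gaps passed the interaction test.

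Library set moved more guidance genes than genotype did, as it did over all genes. By set, 28 of 39 passed (71.79%), 9 higher and 19 lower in set A. Over all genes 63.7% passed by set (31.2% higher and 32.5% lower), against 6.36% higher and 5.63% lower by genotype. Sema3e (-1.71), Sema3d (-1.69), Sema6a (-1.33), Robo2 (-1.26) and Dcc (-1.22) were among those lower in set A on the log2 scale, and Epha8 (0.95), Plxna3 (0.83) and Sema3f (0.78) were among those higher. The 19 genes lower in set A had a median of 10559 exon bases, the 9 higher genes 6258 and the 11 others 6848. Genes called by genotype had a median of 7880 exon bases and those not called 8916.

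Other genes of the same pathways were counted from fixed lists. Among 35 further ligands and receptors tested, 6 were higher and 1 was lower (17.14% and 2.86%, against 6.36% and 5.63% of all genes; median 0.10). With sex as a further term 1 was higher and 0 lower, and Rgmb, Draxin, Dscaml1, Sema6c and Sema4d did not pass (adjusted p 0.0864 to 0.21). By genotype alone edgeR called 0 in either direction. At an unadjusted p under 0.05 it gave 6 of the 35, against 1292 of 16691 over all genes. Robo4 had the highest log2 fold change of the list, 2.92 ± 0.42 (adjusted p = 0.0041). It was scarce, at 0.371, 0.179 and 0.596 CPM in controls (17, 6 and 18 reads). In cKO it was at 1.89, 2.79 and 3.44 CPM (106, 202 and 101 reads), without overlap. Rgmb, a neogenin ligand, was at 12.6 to 24.2 CPM in controls against 25.0 to 39.2 CPM in cKO, without overlap (log2 0.79 ± 0.10, adjusted p = 0.00276). Draxin, which binds Dcc, was at 41.0 to 48.9 CPM in controls against 59.8 to 86.6 CPM in cKO (0.76 ± 0.12, adjusted p = 0.00555). Dscaml1 (0.86 ± 0.21, adjusted p = 0.0336) and Sema6c (0.67 ± 0.13, adjusted p = 0.0118) were higher with overlapping groups, and Sema4d, a plexin-B1 ligand, was lower in every cKO library (60.2 to 99.8 against 103 to 164 CPM; -0.88 ± 0.13, adjusted p = 0.00446). Without cKO 3 none of the 6 higher genes passed, and 3 passed without control 2, where Dscaml1 (adjusted p = 0.0551), Sema6c (0.0970) and Sema4d (0.0531) no longer passed; nor did Dscaml1 pass without control 3 (0.0935), control 4 (0.0602) or cKO 2 (0.0707).

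Among 36 intracellular effectors and co-receptors, 10 were higher and 1 was lower (27.78% and 2.78%, against the same shares of all genes; median 0.21). Adding sex to the model left 2 higher and 0 lower, without Srgap1 (adjusted p = 0.147), Dpysl5 (0.122) and Mical1 (0.241). Genotype alone with edgeR left 1 and 0. At an unadjusted p under 0.05 it gave 4 of the 36, against 1292 of 16691 over all genes. Cntn2, an adhesion molecule of growing axons also called TAG-1, was at 22.7, 15.4 and 13.8 CPM in controls against 133, 121 and 105 CPM in cKO. Its log2 fold change of 2.66 ± 0.11 (adjusted p = 2.43e-06) passed without library set as well (adjusted p = 0.0347). Srgap1, which acts below Robo (0.69 ± 0.11), Ablim1, an actin-binding protein (0.63 ± 0.089), and Dpysl5, of the collapsin response mediator family (0.57 ± 0.093), were also higher, and Mical1, an actin-oxidising enzyme that binds plexins, was lower (-0.37 ± 0.086, adjusted p = 0.0261). Counts in these lists moved as well: 1 effector was higher without cKO 3, 5 without control 2 and 6 without control 3, and Mical1 no longer passed without control 2 (adjusted p = 0.152), control 3 (0.0887), control 4 (0.0807), cKO 2 (0.0548) or cKO 3 (0.318). These lists and those of markers below were drawn up with earlier results of these data known.

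Cell type markers moved with genotype beside these genes, and their part in the results was not tested. In bulk tissue fewer cells of a type and less RNA per cell cannot be told apart. Of 15 ganglion cell markers, 13 were higher and 0 lower, and their summed level was 2561 to 2892 CPM in controls against 4119 to 4246 CPM in cKO; 9 were higher without control 2, 7 without control 3 and 5 without cKO 3, while a model that includes sex left 2. Of 12 progenitor markers, 8 were lower and 1 higher, with sums of 8584 to 9954 and 4693 to 7374 CPM; 5 were lower without control 2 and 2 with sex in the model. Of 12 amacrine and horizontal cell markers 1 was higher and 1 lower (8.33% each), and of 8 photoreceptor precursor markers 1 was higher and 2 lower. Over all genes tested 6.36% were higher and 5.63% lower, the shares for each marker list here and below. The highest log2 fold change was 2.71 among progenitor markers and 2.54 among amacrine and horizontal markers, against lowest values of -1.5 and -0.79. Markers of the labelled tissue were thus present in every library.

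Markers of lens, vessels, microglia, astrocytes and pigment epithelium were counted as well. All 9 lens markers tested were higher, with sums of 2.48 to 5.90 CPM in controls against 820 to 2177 CPM in cKO; the tenth, Lim2, had 0 reads in every control. Of 8 endothelium and pericyte markers 6 were higher and 1, Kdr, was lower, with a median log2 fold change of 1.86 and sums of 546 to 721 and 296 to 579 CPM. A sum weights markers by their level, and here it went against the direction of most of them. Microglia had 5 of 6 higher (16.4 to 29.9 against 46.7 to 61.3 CPM), astrocytes 1 of 6 (63.5 to 81.6 against 72.8 to 78.9 CPM) and pigment epithelium 0 of 5 tested (8.97 to 14.6 against 11.9 to 30.3 CPM). Without cKO 3, 9 lens, 1 endothelium and pericyte, 2 microglia and 0 astrocyte markers were higher. With sex in the model these numbers were 9, 2, 0 and 0, and by genotype alone 6, 0, 0 and 0. Pdgfra, whose promoter drives the Cre, did not pass (log2 -0.01, adjusted p = 0.968).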

How the data were processed

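Retinal RNA of 3 control and 3 cKO mice was sequenced from Illumina TruSeq libraries, per the labels' protocols. Each deposited table gives raw read counts by Ensembl gene identifier, and STAR, HTSeq, edgeR and GRCm38 are named in the submitters' processing notes without versions. Whether counting used strand is not stated, which leaves reads of overlapping genes uncertain; none of the 11 genes called shares exon bases with another gene. Rows that name no gene held 26.41 to 28.76% of counts and stayed out of the tests. Symbols, coordinates and exon lengths came from GENCODE vM21 (GRCm38), which matched 37693 of 39179 identifiers. Nothing in the labels says that libraries came from separate litters, and the series text gives 3 mice per group. Pairs of libraries in a group had a chi-square per degree of freedom of 23.0 to 532 over genes, so none was a repeat of another.

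CPM are gene counts over the TMM-scaled library total, at the usual scale. Genes passing filterByExpr were fitted with edgeR 4.0.16 (R 4.3.3) by genotype and library set (set A has over 2.9% ambiguous reads), leaving 3 residual degrees of freedom, with the quasi-likelihood test and Benjamini-Hochberg adjustment over all 16691 genes. Within-set differences used log2 of CPM plus 0.05. The members, the gene lists and the library sets were chosen with earlier results of these data known. Named are all members past the threshold of 0.05, the most abundant member per kb of each family and the 4 of smallest p among those that did not pass, up to 4 genes of each other list and direction with a mean of at least 2 CPM, and other members with their values or range. Robo4 is named in addition, as a further Robo gene. A gene of the patterning list is not reported here. Alternatives were RLE or no scaling, other filters, genotype alone, sex as a term, a replicate block, DESeq2 1.42.0, limma-voom (limma 3.58.1), thresholds of 0.01 and 0.10 and each library left out. Tested on simulated data with 200 of 16485 genes changed, the fit recovered 86% of log2 changes of 1 and 97% of log2 changes of 2, with 4 false calls. Every simulated gene had the same dispersion, unlike real genes. No change smaller than 1 was simulated, so these rates do not cover the smaller changes reported for most genes called.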

Additional observations from a re-analysis of the deposited data

Results flagged for a closer look

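The genotype effect on Epha8 differed between library sets, by an interaction test of set and genotype: it was 1.81 higher on the log2 scale in set A than in set B (SE 0.18, adjusted p = 0.0173 with edgeR). Over the alternatives the adjusted p ranged from 1.51e-15 to 0.0282, all under 0.05, and the call was lost only at a threshold of 0.01. Set B holds 1 cKO library and set A 1 control, so the difference rests on cKO 3 at 50.3 CPM against 188 and 176 CPM in cKO 1 and 2. The other 3 genes that passed this test were Zfp984 and Zfp979, on chromosome 4 as is Epha8, and Gm26809 on chromosome 6. Zfp984 was at 0.0874, 7.33 and 6.42 CPM in controls 2, 3 and 4 against 2.23, 2.42 and 0.136 CPM in cKO 1, 2 and 3. Zfp979 was at 0.0218, 2.39 and 1.56 CPM and at 1.07, 1.10 and 0 CPM, and Gm26809 at 0.0437, 5.35 and 5.86 CPM and at 3.98, 4.85 and 0.0340 CPM. These 3 genes were near 0 in control 2 and cKO 3 alike, unlike Epha8, which was at 108 CPM in control 2. The cause was not tested.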

How the results depend on the processing

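The 9 higher and 2 lower guidance genes kept their direction under all 17 alternatives, but not their calls. The thresholds of 0.01 and 0.10 reuse the main fit, so direction could not change there. Genotype alone gave 0 and 0, and set with sex 0 and 1. Without a filter on low counts the counts were 17 and 4, against 1471 and 1592 of 25408 genes tested. At a threshold of 0.01 the guidance counts were 5 and 0, and at 0.10 they were 14 and 3. Counts over all genes at these thresholds are not given. Leaving out 1 library in turn gave 3 to 16 higher and 0 to 4 lower, against 176 to 1371 and 134 to 1336 over all genes. Without control 2 or cKO 3 only 1 library set compares genotypes. The count differing by set was 22 to 29 without 1 library and stayed within 1.5 times 28 in all settings run. The count with an interaction was 2 without a filter, 2 with sex, 0 at 0.01 and 1 to 3 without 1 library; it could not be fitted without control 2 or cKO 3, by genotype alone or with the block. Epha8, at -0.13, was at -1.05 without control 2 and reversed to 0.78 without cKO 3. RLE moved the median of all genes to -0.04 and no scaling to 0.03, and neither reversed a member that passed.

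Control and cKO share only the numbers 2 and 3, and no label says what a number marks. With a replicate block, 15 guidance genes were higher and 3 lower, on 1 residual degree of freedom, against 1007 and 1033 over all genes. Sema3c was lost (1.38, adjusted p = 0.0813). Deviations from group means correlated at 0.77 for number 2 and 0.67 for number 3, but libraries of the same set with other numbers correlated at 0.67 to 0.71. Precision is limited by the number of libraries, and for Slit3, Ntn1 and Sema3c also by fewer than 100 reads in every control.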

Other observations

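Of 5 listed genes that pattern the retina into nasal and temporal or crossing and uncrossed parts, Zic2 was higher and Foxd1 lower in cKO retinas. These are 20% each, against 6.36% and 5.63% of all genes, and the rest of the list did not pass. Zic2, a transcription factor of ipsilateral ganglion cells, was at 94.7, 129 and 108 CPM in controls 2, 3 and 4 against 128, 131 and 181 CPM in cKO 1, 2 and 3. The groups overlapped by a small margin (log2 0.53 ± 0.093, adjusted p = 0.00908; 0.48, adjusted p = 0.129, without cKO 3). Foxd1, a marker of the ventrotemporal retina, was at 18.8, 12.3 and 8.97 CPM in controls against 8.17, 7.14 and 6.36 CPM in cKO. Every cKO library was below every control (-1.04 ± 0.18, adjusted p = 0.00839; -0.74, adjusted p = 0.159, without control 2). Neither passed without library set (adjusted p = 0.787 and 0.529) or with sex as a further term (0.233 and 0.0958). Ephb1, known to act in the same ipsilateral cells, was not among the genes that passed.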
